A study of Homo sapiens with 2 samples.

Results

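Translation initiation factor genes are the genes whose products bring the ribosome, the initiator tRNA and the mRNA together at a start codon. They were taken by name from the deposited table, as protein-coding genes whose symbol opens with EIF1 to EIF6. The eIF2 kinases, the eIF4E-binding proteins and symbols with a hyphen were left out. This gave 49 of 46427 listed genes. The EIF2/2B class has 11 of them (EIF2A, EIF2B1, EIF2B2, EIF2B3, EIF2B4, EIF2B5, EIF2D, EIF2S1, EIF2S2, EIF2S3 and EIF2S3B). The EIF3 class has 14 (EIF3A, EIF3B, EIF3C, EIF3CL, EIF3D, EIF3E, EIF3F, EIF3G, EIF3H, EIF3I, EIF3J, EIF3K, EIF3L and EIF3M). The EIF4 class has 13 (EIF4A1, EIF4A2, EIF4A3, EIF4B, EIF4E, EIF4E1B, EIF4E2, EIF4E3, EIF4ENIF1, EIF4G1, EIF4G2, EIF4G3 and EIF4H). The 11 others are EIF1, EIF1AD, EIF1AX, EIF1AY, EIF1B, EIF5, EIF5A, EIF5A2, EIF5AL1, EIF5B and EIF6. EIF1AY is Y-linked, so it was counted as a member and its values are not given.

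The cells were NK92, a human cell line of natural killer origin, and PPMX-T003 is an antibody that blocks the transferrin receptor TfR1. The exposed cells had PPMX-T003 at 10 µg/mL in their medium over the last 6 h, following 18 h of culture shared with the control, which had no agent. Each condition is a single dish and 1 stranded poly(A) library. The columns are headed 0 h and 6 h although both dishes are described as cultured equally long, so the 0 h column was read as the control, and an unequal harvest time cannot be told apart from the exposure. The control library held 46766416 counts and the PPMX-T003 library 43178462, and with 1 library per condition no difference has a replicate check.

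Genes that mark natural killer cells were found in both libraries. NKG7, a granule membrane protein, was at 1083 CPM (counts scaled for the size of the library) in the control and 1207 CPM with PPMX-T003, and GZMB, the granule protease granzyme B, at 732 and 884 CPM. By CPM, which is not divided by transcript length, the lowest of the list was CD7, at 6.82 and 8.30. All 11 genes of the natural killer list passed the filter, and 6 were higher and 0 lower with PPMX-T003 by the rule given below, which called 13.9% of all genes tested higher. With the effect of transcript length and GC content removed, 2 stayed higher (GZMB and TBX21) and the list's median went from 0.16 to 0.03. Before that, 4 of the 11 lay below 0, NCAM1 at -0.08 (-0.12 to -0.04), CD2 at -0.14 (-0.24 to -0.04), KLRD1 at -0.05 and EOMES at -0.03. FCGR3A, the Fc receptor CD16 that this line lacks, had 16 and 15 counts. The T cell list (CD3D, CD3G, CD4, CD8A and CD8B) summed to 4 and 0 counts, all of them CD4. The erythroid genes HBB and HBA1 and the liver genes ALB and APOA1 were listed at 0 in both libraries. A listed 0 was not checked against the reads, so it need not be absence of the RNA. The myeloid list summed to 0.513 and 0.371 CPM. Among B cell and myeloid genes MS4A1 was at 0, CD79B and LYZ had 2 counts each in the control alone, CD79A had 14 and 12, CD14 0 and 7, and CSF1R 22 and 9.

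In initiation, the trimeric factor eIF2 carries the initiator tRNA and GTP to the small ribosomal subunit, and eIF2B recharges eIF2 with GTP after each round. eIF3 is the large scaffold on the small subunit, and the cap-binding complex eIF4F, made of eIF4E, eIF4G and the helicase eIF4A, brings the mRNA to it. eIF1, eIF1A and eIF5 govern the choice of the start codon, and eIF5B and eIF6 act at the joining of the large subunit.

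Some mRNAs of the translation machinery open with a C and a run of pyrimidines, the feature by which terminal oligopyrimidine transcripts are recognised and through which mTOR signalling is known to set their translation. Promoter windows of 300 bases, from 250 before to 50 after an annotated start, were read from RefSeq on GRCh38.p14 and were found for 42 of the 49 members. A start at C with a run of at least 5 C or T was found for 10 of the 42, or 23.8%, beside 5.14% of the 27305 genes with a window. They are EIF2A, EIF2D, EIF2S3, EIF2S3B, EIF3D, EIF3F, EIF3K, EIF3M, EIF4A2 and EIF4B. The sequences of 8 of these starts are shown, among them those of the members called higher or lower (EIF3F, EIF3K and EIF2A), and those of EIF2S3 and its copy EIF2S3B for comparison. Each has 10 bases before the start and 20 from it on, along the gene's strand, with the run in capitals.
EIF3F (chr11:7987327-7987356, plus strand): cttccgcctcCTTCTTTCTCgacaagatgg
EIF3D (chr22:36529147-36529176, minus strand): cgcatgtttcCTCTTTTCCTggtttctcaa
EIF3K (chr19:38619178-38619207, plus strand): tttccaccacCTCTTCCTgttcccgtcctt
EIF2A (chr3:150546777-150546806, plus strand): cgagcggtttCTCTTTCCgggacaacatgg
EIF4A2 (chr3:186783567-186783596, plus strand): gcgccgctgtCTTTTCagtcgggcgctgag
EIF4B (chr12:53006446-53006475, plus strand): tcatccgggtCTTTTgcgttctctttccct
EIF2S3 (chrX:24054946-24054975, plus strand): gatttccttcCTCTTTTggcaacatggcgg
EIF2S3B (chr12:10505880-10505909, plus strand): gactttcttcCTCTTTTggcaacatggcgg
The run is 10 bases long in EIF3F and EIF3D, 8 in EIF3K and EIF2A, 7 in EIF2S3 and EIF2S3B, 6 in EIF4A2 and 5 in EIF4B.

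The letters CACGTG, the E-box that MYC and MAX bind, were found in the windows of 10 members, again 23.8%, beside 8.77% of all genes with a window. They are EIF1B, EIF2B3, EIF3F, EIF3K, EIF4A3, EIF4B, EIF4E, EIF4G1, EIF4H and EIF5A2. The word reads the same on both strands. The sequences below belong to the members with a match that were higher or lower, with 10 bases on either side of the E-box in capitals.
EIF4E, 225 bases before the start (chr4:98929343-98929368, minus strand): acccatcggcCACGTGaccagtcctt
EIF4E, 72 bases before the start (chr4:98929190-98929215, minus strand): acatatccgtCACGTGgccagaagct
EIF1B, 54 bases before the start (chr3:40309643-40309668, plus strand): gcgggacggtCACGTGggaggggccg
EIF4A3, 121 bases before the start (chr17:80147234-80147259, minus strand): agttccctttCACGTGacgaagagtg
EIF3F, 68 bases before the start (chr11:7987259-7987284, plus strand): agctctagctCACGTGgtgtatattc
EIF3K, 103 bases before the start (chr19:38619075-38619100, plus strand): aggaagaagtCACGTGgcagccggaa
The ETS core CCGGAAG, searched on both strands, was found for 11 members (EIF1AD, EIF2A, EIF2B1, EIF2B2, EIF2S3B, EIF3I, EIF3M, EIF4E2, EIF5A, EIF5A2 and EIF6), 26.2% beside 12.2% of all genes with a window. It is shown for EIF2A and EIF5A, with the core in capitals.
EIF2A, 118 bases before the start (chr3:150546659-150546685, plus strand): cactccgtaaCCGGAAGtgaattggcc
EIF5A, 139 bases before the start (chr17:7308224-7308250, plus strand): ggccgcggcaCCGGAAGtgccccccac
EIF5A, 30 bases before the start (chr17:7308333-7308359, plus strand): gtcccggccaCCGGAAGcccggaacgg
Only these letters were searched, and a match is a description of the window.

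Most members were abundant. Of the 49, 46 had at least 20 counts over both libraries and were compared, and 45 had at least 1000. EIF4E1B, an oocyte form of the cap-binding protein, and EIF5A2 are listed at 0 in both libraries, and EIF2S3B had 8 and 6 counts. Apart from EIF1AY, the members took 1.451% of all counts in the control (95% exact Clopper-Pearson interval 1.447% to 1.454%) and 1.450% with PPMX-T003 (1.446% to 1.454%). As a family their RNA was thus at nearly the same share of both libraries. Levels of different genes are compared on the deposited TPM scale, which divides by transcript length and is rounded to whole numbers. On that scale EIF4A1 was highest, at 975 in the control and 993 with PPMX-T003. EIF4G2, at 901 and 838, came next in the control, ahead of EIF5A at 832 and 911, and with PPMX-T003 EIF5A was above EIF4G2. The lowest member above 0 was EIF4E3, at 5 and 5 TPM.

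**Figure D1:**
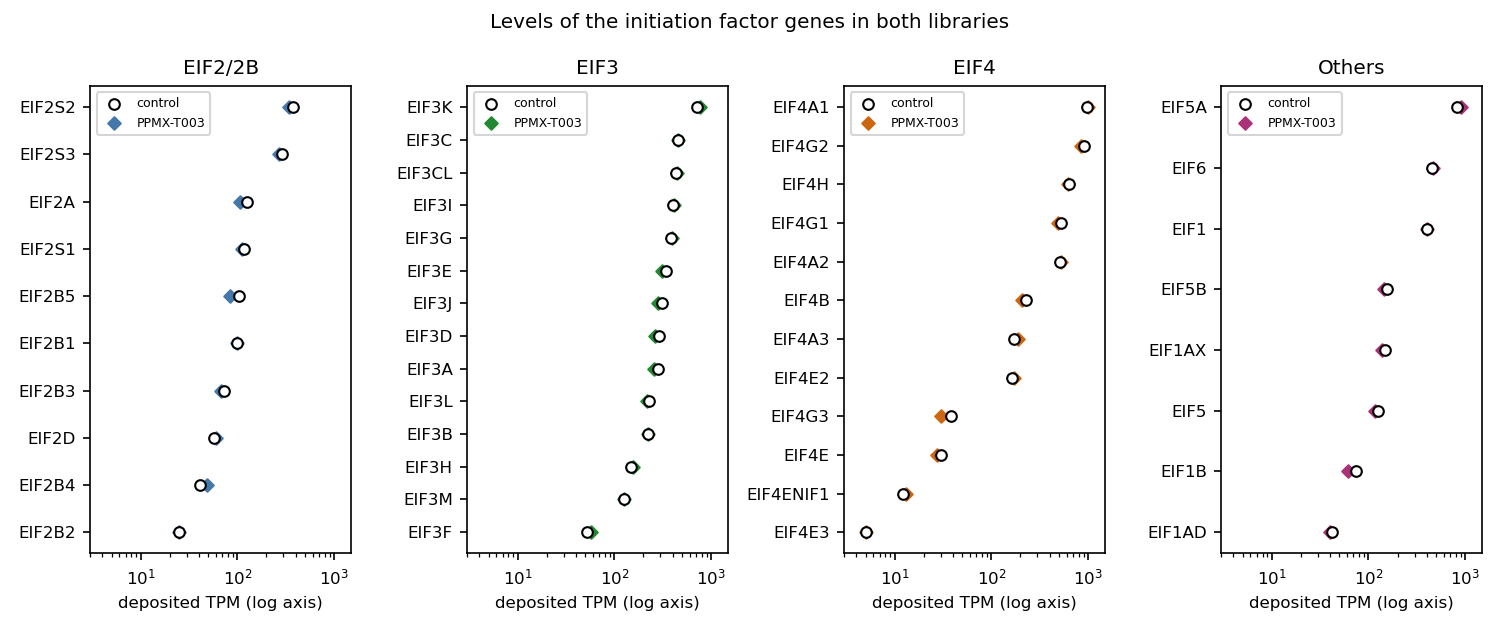
Deposited TPM (log axis) of each initiation factor gene in the control (open circles) and the PPMX-T003 library (filled diamonds), in 4 panels by class; members at 0 TPM and EIF1AY are left off. The points of a gene lie close together beside the spread between genes, from EIF4A1 at 975 and 993 down to EIF4E3 at 5 and 5.

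Each member's scaled CPM was compared between the libraries as a log2 ratio, positive where PPMX-T003 is higher. A gene was called higher or lower where the ratio was at least 1.1-fold (0.14 on the log2 scale) and its 95% Clopper-Pearson interval lay wholly on that side of 0. These intervals cover counting error only, not differences between dishes. By this rule 6 of 46 members were higher (13.0%) and 5 lower (10.9%), beside 13.9% and 16.3% of the 13665 genes tested. Among the 8074 protein-coding genes with at least 1000 counts, 14.5% were higher and 19.8% lower. Whether the members' shares differ from these was not tested. With upper-quartile scaling the members divided as 7 higher and 3 lower, without EIF2A (-0.13) and EIF4E (-0.13), and with median-of-ratios scaling EIF3K (0.13) was no longer called. On the log2 scale of the deposited TPM with a pseudocount of 1, EIF2B4 passed 1.1-fold and EIF3F (0.13), EIF3K (0.09), EIF4A3 (0.11), EIF4ENIF1 (0.11) and EIF5A (0.13) did not, while EIF3A (-0.16), EIF3E (-0.16) and EIF4B (-0.17) passed as lower. Uncalled members moved on that scale too. EIF4G1 was at -0.09 by TPM and -0.02 by counts, EIF3C at 0 and 0.07, while EIF4E2 went the other way, at 0.07 and 0.03. How much of this is a shift shared by most genes was not tested. No member differed by 2-fold or more. Of all genes tested 2.64% did, but of the 8074 protein-coding genes with at least 1000 counts 2 did.

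The median log2 ratio was 0.01 over the 46 members and -0.002 over all genes tested. It turned to -0.002 for the members with median-of-ratios scaling, so no direction is given for the family. By class the median was -0.04 for the 10 EIF2/2B genes compared, 0.06 for the 14 EIF3 genes, -0.003 for the 12 EIF4 genes and -0.01 for the 10 others. With upper-quartile scaling the medians of EIF4 and the others were above 0, while those of EIF2/2B and EIF3 kept their sign under each of the 4 scalings. After the length and GC fit described below, however, the EIF2/2B median was 0.04 and the EIF3 median 0.02, and the EIF3 value was 0.003 on the deposited TPM and 0.01 for summed counts. The middle 50% of all members lay between -0.08 and 0.09, against -0.14 and 0.13 for all genes tested and -0.11 and 0.09 for protein-coding genes with at least 1000 counts. Summed counts gave the others a log2 ratio of 0.03 (0.02 to 0.04), opposite in sign to their median. The RNA was bulk RNA, so fewer cells of a type and less RNA per cell cannot be told apart.

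**Figure D2:**
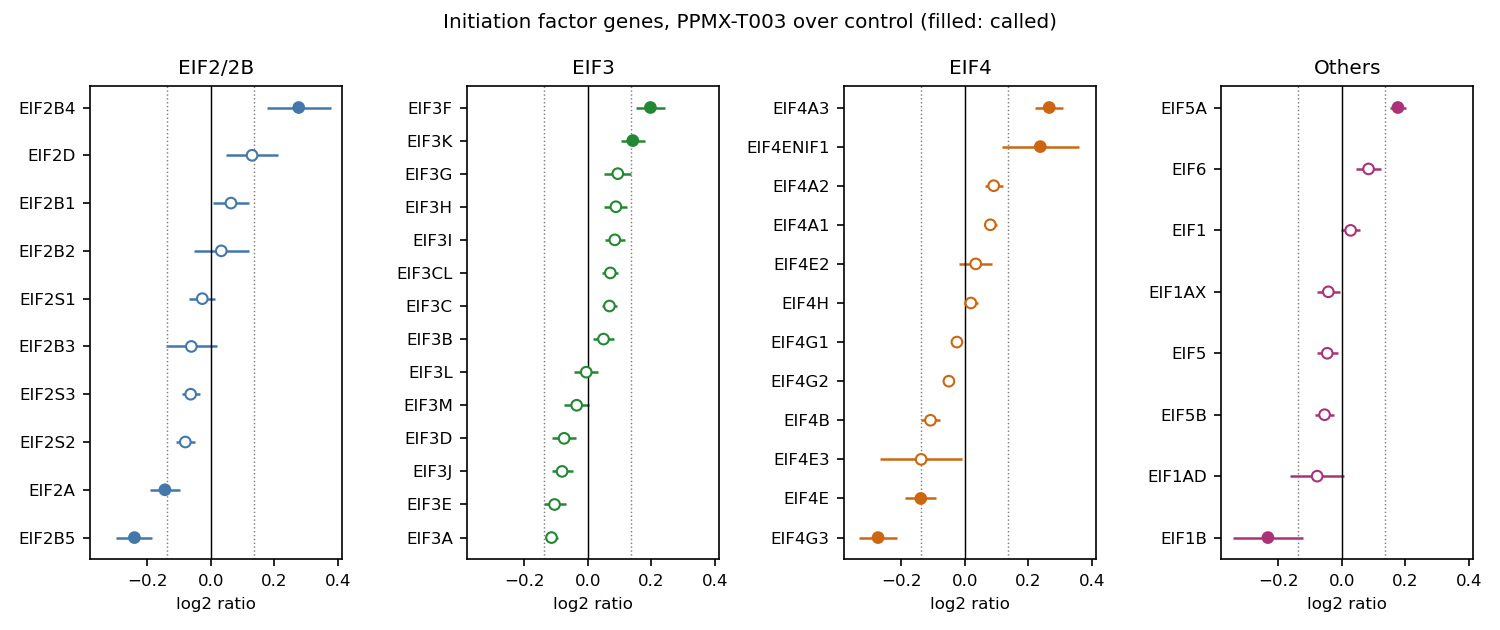
Log2 ratio of CPM, PPMX-T003 over control, for the members with at least 1000 counts except EIF1AY, with 95% counting intervals, in 4 panels by class. Filled points are the 6 higher and 5 lower genes, dotted lines mark 1.1-fold, and each class has members on both sides of 0.

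Within EIF2/2B, 1 gene was higher and 2 were lower of the 10 compared, beside 13.9% and 16.3% of all genes tested. EIF2B5, the catalytic subunit that exchanges GDP for GTP on eIF2, had 5752 counts in the control and 4489 with PPMX-T003, or 123 and 104 CPM. Its log2 ratio was -0.24 (interval -0.30 to -0.18). EIF2B4, a subunit of the regulatory core that senses phosphorylated eIF2, had 1505 and 1682 counts, or 32.2 and 39.0 CPM, at 0.28 (0.18 to 0.38). Subunits of the same exchange factor thus lay on opposite sides of 0. There were 3.82 EIF2B5 counts per EIF2B4 count in the control and 2.67 with PPMX-T003, a log2 change of -0.52 (exact conditional interval -0.63 to -0.40) that does not depend on the scaling. This pair was chosen after the values were seen.

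The other subunits of eIF2B lay nearer 0. EIF2B3, the partner of EIF2B5 in the catalytic part, was at -0.06 (-0.14 to 0.02). In the regulatory part EIF2B1 was at 0.06 (0.01 to 0.12) and EIF2B2 at 0.03 (-0.05 to 0.12).

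The eIF2 trimer itself stayed within 1.1-fold. EIF2S2, the beta subunit and the most abundant member of the class at 377 and 344 TPM, was at 426 and 403 CPM, a log2 ratio of -0.08 (-0.11 to -0.05). EIF2S3, the gamma subunit that binds GTP and the tRNA, was at 446 and 427 CPM, a log2 ratio of -0.06 (-0.09 to -0.03). EIF2S3B, an intronless copy of it, stayed under the filter, and 26.8% of the 50-base words in its transcripts were also found in those of EIF2S3. The 3 trimer genes together were at 1088 and 1042 CPM, a log2 ratio of -0.06 (-0.08 to -0.04), and their median went from -0.06 to 0.02 after the length and GC fit described below. EIF2A, a separate factor that can bring initiator tRNA without GTP, went from 7534 to 6285 counts, or 161 to 146 CPM, and was lower at -0.14 (-0.19 to -0.10). EIF2A did not pass 1.1-fold after that fit (-0.04) or with upper-quartile scaling (-0.13). The remaining 5 genes, EIF2B1, EIF2B2, EIF2B3, EIF2D and EIF2S1, lay between -0.06 and 0.13, with 2 intervals above 0 and 3 that held 0.

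The EIF3 class had 2 genes higher and 0 lower of 14, beside 13.9% and 16.3% of all genes tested. On the deposited TPM 0 were higher and 2 lower past 1.1-fold, for which no share of all genes is given. EIF3F, a subunit with an MPN domain, had 7453 counts in the control and 7880 with PPMX-T003, or 159 and 183 CPM, a log2 ratio of 0.20 (0.15 to 0.24). EIF3K, a small subunit at the edge of the complex, had 11538 and 11738 counts, or 247 and 272 CPM, at 0.14 (0.10 to 0.18). EIF3K did not pass 1.1-fold after the length and GC fit described below (0.07), on the deposited TPM (0.09) or with median-of-ratios scaling (0.13). It was also the most abundant EIF3 gene by TPM, at 723 and 769. That rank depends on the transcript length taken for TPM, and EIF3K had the fewest counts per TPM of the class, as given below. EIF3F and EIF3K have both the E-box and the pyrimidine start shown above, as does EIF4B, at -0.11 (-0.14 to -0.08). EIF3A, the largest subunit and the backbone of the complex, had 39696 and 33815 counts, or 848 and 784 CPM, at -0.11 (-0.14 to -0.09), which is under 1.1-fold.

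EIF3A counts per EIF3F count went from 5.33 to 4.29, a log2 change of -0.31 (-0.36 to -0.26), for a pair chosen with the values known. The 9 subunits not given singly lay between -0.10 and 0.09 on the log2 scale. The intervals of EIF3B, EIF3G, EIF3H and EIF3I lay above 0, those of EIF3D, EIF3E and EIF3J below 0, and those of EIF3L and EIF3M held 0. The module of EIF3B, EIF3G and EIF3I, which sits near the mRNA channel, was at 842 and 887 CPM, a log2 ratio of 0.07 (0.05 to 0.09). After the length and GC fit described below, the median of these 3 genes went from 0.09 to 0.003, EIF3A went from -0.11 to -0.02, and EIF3F from 0.20 to 0.16, or to 0.33 with each gene's longest transcript in the fit. The octamer core with PCI and MPN domains was at 2924 and 2926 CPM, a log2 ratio of 0.001 (-0.01 to 0.01), with 4 of its 8 genes above 0 and 4 below.

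EIF3C and EIF3CL are near-identical copies, and 97.2% of the 50-base words in EIF3CL transcripts were found in those of EIF3C. EIF3C was at 607 and 637 CPM (0.07, 0.04 to 0.09) and EIF3CL at 567 and 596 CPM (0.07, 0.05 to 0.10). How the counting divided reads between them is uncertain, so their separate levels are too. Counts per TPM differ between genes because TPM divides by transcript length. EIF3F was at 52 and 57 TPM with 143 counts per TPM in the control, and its longest transcript has 7540 bases. EIF3K had 16.0 counts per TPM with a longest transcript of 1327 bases. EIF3G, at 1103 bases, had 23.0. Why EIF3K had fewer counts per TPM than EIF3G was not tested.

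In the EIF4 class 2 genes were higher and 2 lower of the 12 compared, beside 13.9% and 16.3% of all genes tested. On the deposited TPM 0 were higher and 3 lower past 1.1-fold, again without a share of all genes. The helicase gene EIF4A1 was at 763 and 807 CPM, a log2 ratio of 0.08 (0.06 to 0.10), and its paralogue EIF4A2 at 433 and 461 CPM, a log2 ratio of 0.09 (0.06 to 0.12). EIF4A3, which belongs to the exon junction complex and not to eIF4F, went from 8005 to 8876 counts, or 171 to 206 CPM, and was higher at 0.27 (0.22 to 0.31). EIF4A3 counts were 22.4% of EIF4A1 counts in the control and 25.5% with PPMX-T003, a log2 change of 0.19 (0.14 to 0.23). EIF4A2 counts were 56.7% and 57.1% of EIF4A1 counts, a log2 change of 0.01 (-0.02 to 0.05).

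The cap-binding genes EIF4E, EIF4E2 and EIF4E3 were less abundant than the 3 eIF4A genes by CPM and by TPM. The TPM of EIF4E (30 in the control) and EIF4E3 (5) depends on the transcript length taken. Their longest transcripts have 11523 and 9949 bases, against medians of 1097 and 1770.5. EIF4E, which binds the cap within eIF4F, went from 7201 to 6031 counts, or 154 to 140 CPM, and was lower at -0.14 (-0.19 to -0.09). EIF4E3, a paralogue with weaker cap binding, went from 1093 to 916 counts, or 23.4 to 21.2 CPM, at -0.14 (-0.27 to -0.01). EIF4E passed the 1.1-fold limit and EIF4E3 missed it by less than 0.01 on the log2 scale, so the call separates nearly equal ratios. EIF4E2, a cap-binding protein that represses translation, was at 129 and 132 CPM, a log2 ratio of 0.03 (-0.02 to 0.09). Its counts were 83.9% of EIF4E counts in the control and 94.6% with PPMX-T003, a log2 change of 0.17 (0.10 to 0.25). The genes were closer after the length and GC fit described below, with EIF4E2 at 0.02 and EIF4E at -0.09, and closer still with each gene's longest transcript in it, at 0.06 and 0.04. EIF4ENIF1, which binds eIF4E and carries it into the nucleus and to processing bodies, went from 1084 to 1179 counts, or 23.2 to 27.3 CPM, and was higher at 0.24 (0.12 to 0.36).

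Among the scaffolds, EIF4G3 had the lowest log2 ratio of all members compared. It went from 4967 to 3789 counts, or 106 to 87.8 CPM, at -0.27 (-0.33 to -0.21). EIF4G1, the main scaffold of eIF4F, was at 1259 and 1238 CPM, a log2 ratio of -0.02 (-0.04 to -0.01). EIF4G2, which lacks the part that binds eIF4E, was at 1523 and 1471 CPM, a log2 ratio of -0.05 (-0.07 to -0.03). EIF4G3 counts fell from 8.43% to 7.10% of EIF4G1 counts, a log2 change of -0.25 (-0.31 to -0.19), and after the length and GC fit EIF4G3 was at -0.20 and EIF4G1 at -0.05. EIF4G2 counts were 1.21 and 1.19 times EIF4G1 counts, a log2 change of -0.03 (-0.05 to -0.002). The helicase helpers EIF4B and EIF4H lay at -0.11 and 0.02, and 1 of these 2 intervals was below 0.

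**Figure D3:**
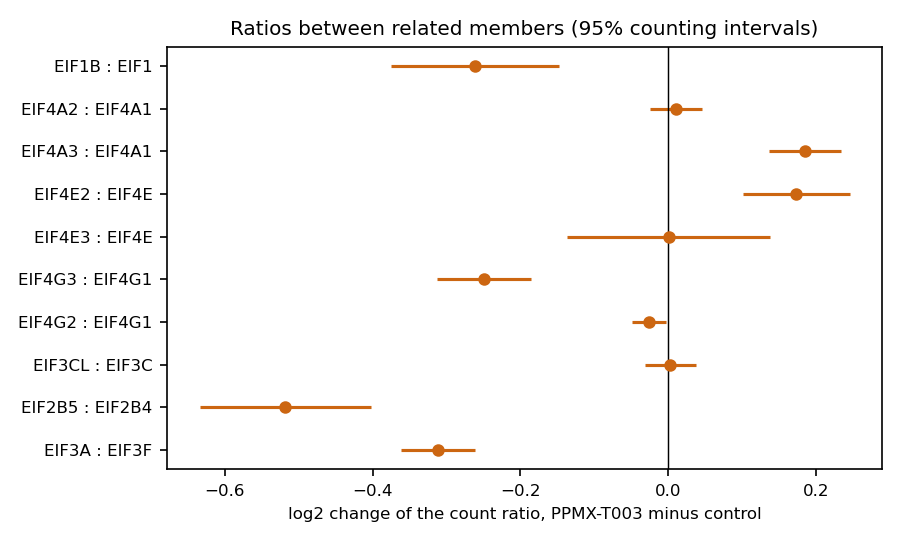
Log2 change of the count ratio between related members, PPMX-T003 minus control, with 95% exact conditional intervals for counting error; the pairs EIF2B5 to EIF2B4 and EIF3A to EIF3F were chosen after their values were seen. EIF1B against EIF1 and EIF4G3 against EIF4G1 lie below 0, EIF4A3 against EIF4A1 and EIF4E2 against EIF4E above 0, and EIF4A2 against EIF4A1 and EIF3CL against EIF3C at 0.

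Of the 10 other factors compared, 1 was higher and 1 lower, beside 13.9% and 16.3% of all genes tested. EIF5A, which carries the hypusine residue and helps ribosomes over stalling sequences, went from 22757 to 23720 counts, or 486 to 550 CPM, and was higher at 0.18 (0.15 to 0.20). EIF5A did not pass 1.1-fold after the length and GC fit described below (0.11, or 0.06 with each gene's longest transcript in it) or on the deposited TPM (0.13). Its near-copy EIF5AL1 had 10 and 14 counts, a log2 ratio of 0.52 with an interval from -0.67 to 1.93, so no difference was detectable at this depth. EIF1B went from 1531 to 1201 counts, or 32.7 to 27.8 CPM, and was lower at -0.23 (-0.34 to -0.12). Its paralogue EIF1, which keeps the ribosome scanning until a start codon is met, was at 425 and 433 CPM, a log2 ratio of 0.03 (-0.001 to 0.06). EIF1B counts went from 7.70% to 6.43% of EIF1 counts, a log2 change of -0.26 (-0.37 to -0.15). EIF6, which keeps the large subunit from joining early, was at 220 and 233 CPM, a log2 ratio of 0.08 (0.04 to 0.12). Its ratio was -0.01 after the length and GC fit and 0.02 on the deposited TPM. EIF1AD, EIF1AX, EIF5 and EIF5B lay between -0.08 and -0.04, with 3 of the 4 intervals below 0. After the length and GC fit EIF1AX turned to 0.08 and EIF5B to 0.10, while EIF5 was at -0.05 and EIF1AD at -0.15.

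Genes with the sequence features shown above were found on both sides of 0, and their calls are to be read beside the 13.9% higher and 16.3% lower of all genes tested. Of the 9 compared members with a pyrimidine start, 2 were higher (EIF3F and EIF3K) and 1 lower (EIF2A), and their log2 ratios ran from -0.14 to 0.20 with a median of -0.03. Of the 9 with an E-box, 3 were higher (EIF3F, EIF3K and EIF4A3) and 2 lower (EIF1B and EIF4E), from -0.23 to 0.27 with a median of -0.02, and the calls of EIF3K and EIF4E were lost after the length and GC fit described below. Of the 9 with an ETS core, 1 was higher (EIF5A) and 1 lower (EIF2A), with a median of 0.03. After that fit the calls of EIF5A (0.11) and EIF2A (-0.04) were lost, and EIF1AD (-0.15) was called lower. Among members with a pyrimidine start, the calls of EIF3K (0.07) and EIF2A were lost after it, and EIF3F (0.16) stayed higher.

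Over all genes the log2 ratio followed the GC content of the transcripts, and the members lay along that trend. Spearman's rho across genes was 0.48 for the 46 members compared and 0.48 for 9926 genes with at least 200 counts, and Pearson's r was 0.36 and 0.40. Genes are not independent replicates, and all points share the same libraries. Of the 5 lower members EIF2A has a median transcript GC of 39.7%, EIF1B of 42.8%, EIF4E of 42.8% and EIF4G3 of 47.6%, while the 6 higher members lie between EIF4ENIF1 at 50.8% and EIF5A at 57.0%. EIF2B5, at 52.3%, was lower although its GC content is that of the higher genes. The median GC content was 46.3% for EIF2/2B, 52.0% for EIF3, 49.8% for EIF4 and 46.0% for the others.

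With the part of the log2 ratio that a robust regression on transcript length and GC content gives removed, 7 of the 11 calls were kept. These are EIF2B4 (0.24), EIF3F (0.16), EIF4A3 (0.26) and EIF4ENIF1 (0.24) among the higher genes, and EIF2B5 (-0.24), EIF4G3 (-0.20) and EIF1B (-0.19) among the lower. EIF3K (0.07), EIF5A (0.11), EIF2A (-0.04) and EIF4E (-0.09) no longer passed 1.1-fold. EIF4E turned to 0.04 where the longest transcript of each gene was used in place of the medians, a choice made after seeing the data. With 2 further members called, EIF1AD (-0.15) among them, the counts were 5 higher and 4 lower, beside 10.8% and 12% of the 12092 genes tested with a known length. The median of EIF2/2B turned from -0.04 to 0.04 and that of the others from -0.01 to 0.05, while those of EIF3 and EIF4 were 0.02 and -0.02. How much of the difference between the classes goes with GC content and how much with PPMX-T003 was not tested.

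**Figure D4:**
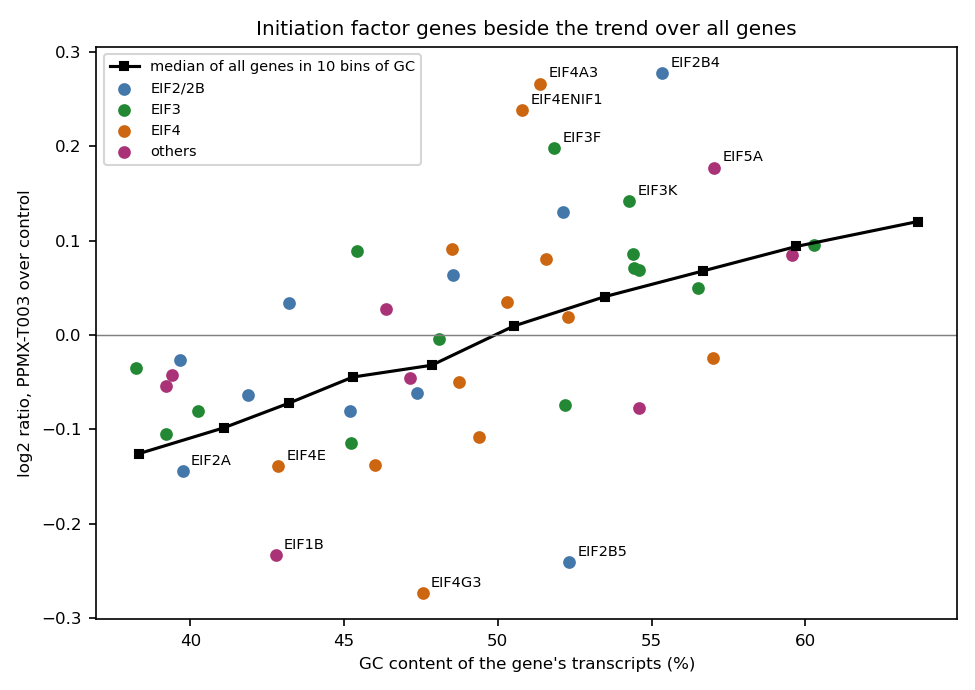
Log2 ratio of CPM, PPMX-T003 over control, against the median GC content (%) of each member's transcripts, for members with at least 1000 counts except EIF1AY, coloured by class. Black squares are the medians of all genes with at least 200 counts in 10 bins of GC content, and the 11 called members are named, EIF2B5 and EIF4G3 lying farthest below that line.

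Genes around initiation were counted in 6 further lists, to be read beside the 13.9% higher and 16.3% lower of all genes tested. Of 11 regulators of eIF2, 10 were tested, with 1 higher and 2 lower, and their median was -0.09, and -0.03 after the length and GC fit. EIF2AK2, the kinase PKR that phosphorylates eIF2 on double-stranded RNA, went from 9781 to 6818 counts, or 209 to 158 CPM, at -0.40 (-0.45 to -0.36). PPP1R15B, which brings the phosphatase to eIF2 in unstressed cells, was at 129 and 103 CPM, a log2 ratio of -0.33 (-0.39 to -0.28). PPP1CA, a catalytic subunit of that phosphatase, was at 252 and 289 CPM, a log2 ratio of 0.20 (0.16 to 0.23). The kinase genes EIF2AK1 (0.001) and EIF2AK3 (-0.05) were not called. After the length and GC fit EIF2AK2 stood at -0.32 and PPP1R15B at -0.22, PPP1R15A, the stress-induced counterpart of PPP1R15B, at -0.18 was also called lower, and PPP1CA at 0.09 did not pass 1.1-fold. EIF2AK4 is listed at 0 in both libraries, and whether its RNA was absent or missed by the counting cannot be told here.

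Of 11 regulators of eIF4F, 10 were tested, with 1 higher and 1 lower, beside the same 13.9% and 16.3%, and their median was -0.05, and -0.02 after the fit. EIF4EBP1, which holds eIF4E away from eIF4G until mTOR phosphorylates it, went from 497 to 362 counts, or 10.6 to 8.39 CPM, at -0.34 (-0.54 to -0.14). RPTOR, the mTOR partner that selects its substrates, was at 57.2 and 64.2 CPM, a log2 ratio of 0.17 (0.09 to 0.24). EIF4EBP2, at 210 and 199 CPM, was not called, with a log2 ratio of -0.08 (-0.12 to -0.03). After the length and GC fit EIF4EBP1 stood at -0.49 and EIF4EBP2 at 0.05, and RPTOR at 0.12 did not pass 1.1-fold.

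Helpers of initiation without an EIF name gave 0 higher and 4 lower genes of 13 tested, beside 13.9% and 16.3% of all genes. Their median was -0.04, and 0.002 after the fit. DDX3X is listed at 0 in both libraries, and whether its RNA was absent or missed by the counting cannot be told here. ABCE1, which divides ribosomes for the next round, was at 326 and 288 CPM, a log2 ratio of -0.18 (-0.21 to -0.15). DENR and MCTS1, partners in recycling and reinitiation, had log2 ratios of -0.15 (-0.21 to -0.10) and -0.14 (-0.22 to -0.07). BZW1, which mimics eIF5, was at -0.14 (-0.16 to -0.12). The GC content of these 4 genes is between 40.9% for ABCE1 and 42.9% for BZW1, and none of the 4 passed 1.1-fold after the length and GC fit, at -0.08 for ABCE1 and DENR and -0.09 for MCTS1 and BZW1. BZW2, not called before the fit, was called higher after it at 0.15.

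Of the 13 elongation genes 2 were higher and 0 lower, beside 13.9% and 16.3% of all genes, and their median was 0.07, and 0.02 after the fit. EEF1AKMT1, a methyltransferase for the elongation factor eEF1A, had 221 and 259 counts, a log2 ratio of 0.34 (0.08 to 0.61). DOHH, which completes the hypusine on eIF5A, was at 47.0 and 52.3 CPM, a log2 ratio of 0.15 (0.07 to 0.24), and at 0.01 after the fit. EIF5A and this modifying enzyme were thus both higher before the fit and neither passed 1.1-fold after it, while DPH1 was called lower at -0.15. Of the 4 termination and recycling genes 3 were tested, with 0 called, and their median was -0.002, and 0.06 after the fit. GSPT1, the release factor eRF3, was at -0.08 (-0.12 to -0.05) and PELO, which frees stalled ribosomes, at 0.07 (-0.04 to 0.19), and PELO was called higher after the fit at 0.16. Of the 10 mitochondrial translation factors 0 were higher and 1 lower, beside 13.9% and 16.3% of all genes, and their median was -0.03, and 0.01 after the fit. That gene was MTRF1L, a mitochondrial release factor, at 32.6 and 29.6 CPM, a log2 ratio of -0.14 (-0.25 to -0.03), and at -0.03 after the fit.

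Copies of the family outside the rule took few counts. The table lists 63 pseudogenes with a symbol of the family, 32 of them at 0, and the rest sum to 5105 counts in the control and 4603 with PPMX-T003, which is 0.752% and 0.735% of the counts of the members. EIF4HP1 held 2064 and 2024 of these counts and EIF1AXP1 1237 and 1009. The readthrough gene SENP3-EIF4A1 had 73 and 55 counts, 0.204% and 0.158% of those of EIF4A1. Of the members, 7 share exons with another gene on the same strand, EIF3L, EIF4A1, EIF4A2, EIF4E, EIF4E3, EIF4G2 and EIF6, and EIF4E is the 1 among them that was called.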

How the data were processed

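RNA of NK92 cells was measured in 1 control and 1 PPMX-T003 library. The submitters' processing notes name Trimmomatic 0.38, HISAT2 2.2.0, StringTie 2.1.3b, edgeR 3.17 and hg38. The authors deposited read counts per gene, unscaled, and TPM rounded to whole numbers, which was treated as a score. The 2 deposited FPKM columns were not used. No row lacked a gene name. The members and lists were chosen with earlier results of these data known.

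Log2 CPM ratios with a prior count of 2 were computed after TMM scaling (trimmed mean of M-values), in which 5% of mean levels and 30% of log ratios were trimmed. The tools were Python 3.11.15, scipy 1.17.1, statsmodels 0.14.6, pandas 2.3.3, numpy 2.4.6 and, for figures, matplotlib 3.10.9. Genes with at least 20 counts summed over both libraries were tested, and the calling rule was tested on simulated data. The simulation held counting error alone and changes larger than 1.1-fold. It cannot show how the rule does near that limit or with differences between dishes. Clopper-Pearson intervals of 95% on the PPMX-T003 library's part of a gene's counts became intervals of the log2 ratio. Sums leave out EIF1AY. Transcript lengths, GC content, shared 50-base words and shared exons came from GENCODE release 29, medians over protein-coding transcripts, known for 88.5% of tested genes, and the robust regression used the 9926 genes that had 200 or more counts. Promoter windows came from RefSeq.

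Every member is named. Full values are given for called members, the 3 per class with the interval bound farthest from 0, the most abundant per class by TPM, and paralogue pairs. From each related list the called genes, or else the 2 most changed, are named. C12orf65, an older symbol, stood for MTRFR. The values of 2 marker genes are not reported here. Groups of subunits and 2 count ratios were chosen with the values known.

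The alternatives were scaling by library size, by upper quartile or by median of ratios, a prior count of 0.5 or of 5, deposited TPM with a pseudocount of 1, removal of the length and GC fit, summing of near-identical copies, a 1.2-fold limit, the interval alone, filters of 1, 200 and 1000 counts, and summed counts by class.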

Additional observations from a re-analysis of the deposited data

How the results depend on the processing

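Each condition had 1 library, so no replicate could be left out. No paired analysis was possible because there is a single library in either group. The counts of 6 higher and 5 lower members stayed within 1.5 times under the library-size and median-of-ratios scalings, both prior counts, the summed copies and the filters of 1 and 200 counts. Upper-quartile scaling gave 3 lower members. A limit of 1.2-fold gave 2 higher and 1 lower, for which no share of all genes is given. The interval alone gave 17 and 18 of 46 members, beside 2983 and 3262 of the 13665 genes tested. Of the 8074 protein-coding genes with at least 1000 counts it gave 2237 and 2617. The deposited TPM, which has no interval, gave 1 higher and 8 lower, again without a share of all genes. Its class medians were -0.10 for EIF2/2B and 0.0032 for EIF3. With the length and GC fit removed the class medians were 0.044 for EIF2/2B, 0.021 for EIF3 and 0.054 for the others. With each gene's longest transcript in that fit, chosen after seeing the data, 3 members were lower, the medians were 0.030 for EIF2/2B, 0.0064 for EIF3, 0.039 for EIF4 and 0.063 for the others, and EIF4E reversed to 0.040. Summed counts gave 0.013 for EIF3, where EIF3A has the most counts, and 0.029 for the others, opposite in sign to their median, which was -0.042 with at least 1000 counts or with copies summed. Without members that share exons, also chosen after seeing the data, the EIF4 median was 0.019. Of protein-coding genes with at least 1000 counts 34.3% were called in either direction, against 30.2% of all genes tested. The cause of these shifts was not tested. EIF5AL1 and EIF2S3B had 24 counts or fewer, too few to show a difference of the size seen in other members. EIF4E1B and EIF5A2 are listed at 0. Of the 11 calls, 11 were kept with library-size scaling, 10 with median-of-ratios scaling, 9 with upper-quartile scaling and 6 with the deposited TPM.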
